A study of Homo sapiens with 12 samples.

Results

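MDA-MB-231 cells treated with SAHA were compared with the same cells given the solvent DMSO (Ctrl), over all genes that the authors tested. All 18534 genes of the SAHA comparison table are described here. The study as a whole holds 27146 genes across its 3 comparison tables. MDA-MB-231 is an established human breast cancer line of the triple-negative class, which lacks the hormone receptors and HER2 amplification that drive other breast cancers, and has a mesenchymal shape in culture. Both groups were grown alike and treated for 48 h, with 2.5 µM SAHA or with DMSO, and each had 3 libraries labelled as biological replicates, 6 of the study's 12. The other libraries received compound 1 or the hybrid compound a6 at the same dose and time. The labels do not say that replicates came from separate cultures, so p-values measure the spread between these libraries, which may be partly technical. The tables used here give 1 value per gene and comparison: no value or depth per library was analysed here, and the number of counts behind a gene is known only as its mean.

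SAHA (vorinostat) is a hydroxamic acid drug that binds the zinc ion in the active site of histone deacetylases (HDACs). These enzymes remove acetyl groups from lysines of histones and other proteins, working against the acetyltransferases that add them, and many sit in corepressor complexes at genes. In cultured cancer cells HDAC inhibitors are known for raising the cell cycle inhibitor CDKN1A and genes of other lineages that are normally silent, and for lowering genes of cell division.

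Each gene has a mean normalized count over the 6 libraries, a log2 fold change of SAHA over Ctrl and the standard error of that change, which follows the sign ± below; the mean of each group was worked out here from these values. A gene is said to have risen or fallen where its adjusted p was under 0.05 in the authors' DESeq2 Wald test. By this rule 7.55% of the genes tested changed: 4.53% rose and 3.02% fell, which is 839 and 560 genes. A change of at least 2-fold was also met by 1164 of them, or 6.28% of the genes tested. These shares are the background for every list below. Of 13495 protein-coding genes 4.99% rose and 3.66% fell, the background for families counted in protein-coding genes only. The median log2 fold change over all genes was -0.01, and 49.3% of genes lay above 0. Of all genes, 3418 (18.4%) had an unadjusted p under 0.05.

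Raised and lowered genes differed in level and size of change. Raised genes had a median group mean of 21.8 in Ctrl and 87.6 with SAHA, and a median change of 1.99 on the log2 scale. Lowered genes went from a median of 592 to one of 268, and their median change was smaller, 1.15 in size. Among raised genes 229 changed by at least 3 on the log2 scale, against 10 lowered ones. A 95% interval (1.96 standard errors) that lay wholly beyond 2-fold was found for 410 raised and 77 lowered genes. The Ctrl mean was under 1 for 97 raised genes. Fitted fold changes of such genes depend on how a fit treats counts near 0, and are neither exact nor lower bounds.

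**Figure D1:**
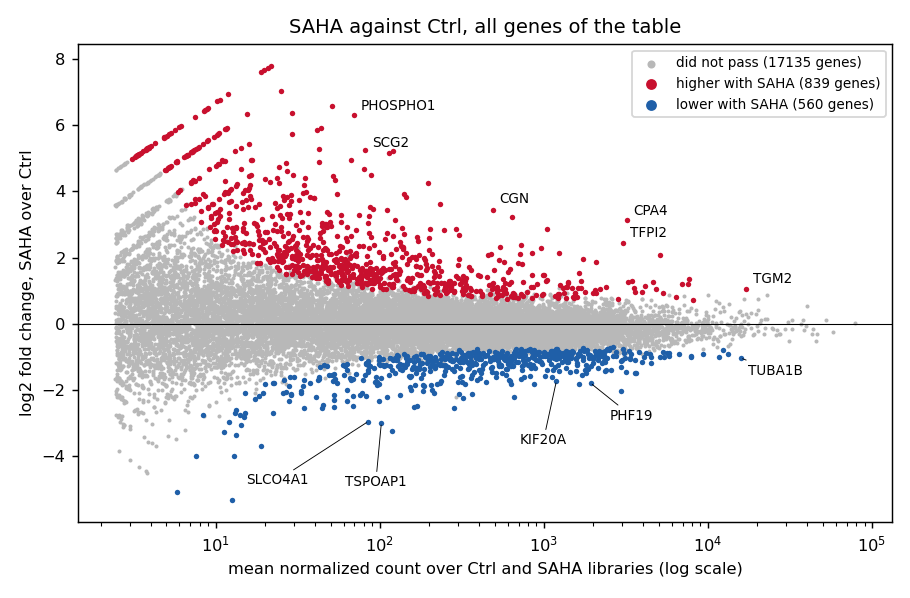
Each point is a gene of the SAHA table, with the mean normalized count over Ctrl and SAHA libraries on a log axis and the log2 fold change on the vertical axis. The 839 raised genes lie mostly at low and middle counts and reach far above 2, while the 560 lowered genes lie mostly at middle and high counts between -2 and 0. The slanting rows at the left hold genes that share 1 low Ctrl mean.

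The share of genes that rose was 3.12% at a mean count under 10, highest at 10 to 50 with 9.03%, and 1.81% at 1000 and over. The share that fell went from 0.0986% under 10 to 1.34% at 10 to 50 and 5.40% at 1000 and over. The median standard error was 1.17, 0.60 and 0.28 in these bins, so smaller changes could be called among abundant genes. The lists and families below differ in level, and the part of level in their shares was not tested. Transcript GC content moved with the calls too. In the fifth of genes with the lowest GC content 0.495% fell, and in the fifth with the highest 7.14% fell, while the share that rose stayed between 3.65% and 5.33%. Median GC content was 57.7% for lowered genes, 49.1% for raised genes and 48.9% for genes that did not pass. The part of GC content in these calls was not tested beyond removing its trend. That left 860 genes higher and 369 lower, 70.0% higher among those called, against 60.0% as deposited. Genes whose mean count reached 1000 had a median of -0.14; centring on that value gave 1115 higher and 372 lower (75.0% higher), so every lowered gene is relative to the authors' scaling.

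**Figure D2:**
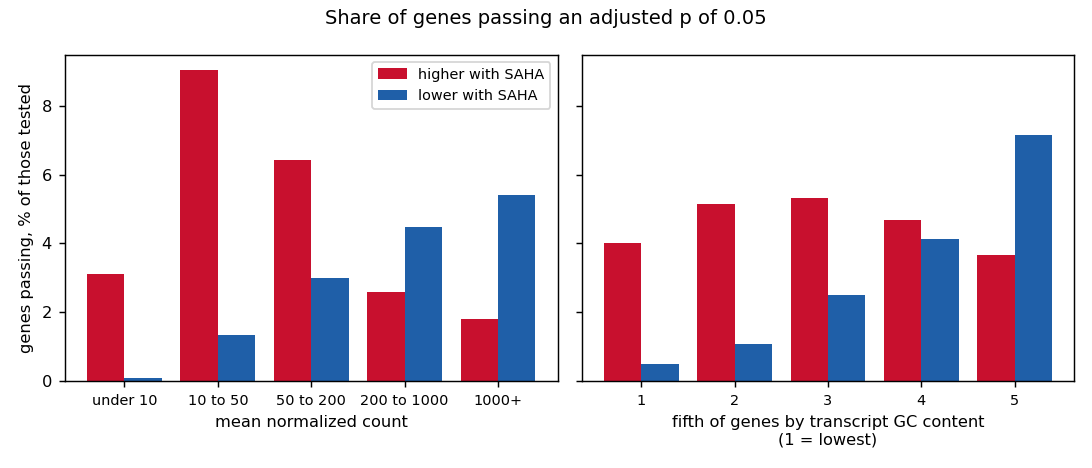
Bars give the percentage of tested genes that rose (red) or fell (blue), by bins of mean normalized count (left) and by 5 equal groups of transcript GC content from lowest to highest (right). Lowered genes go from 0.0986% to 5.40% along the count bins and from 0.495% to 7.14% along the GC groups.

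At mean counts of 50 or more the largest changes were of genes close to silent in Ctrl. HPCAL4, a neuronal calcium sensor, went from a group mean of 1.05 to 101, and PHOSPHO1, a phosphatase of bone mineralization, from 1.72 to 137. HSD11B1, the enzyme that regenerates cortisol from cortisone, went from 17.3 to 265 (log2 3.93 ± 0.39 in the authors' deposited table). The tetraspanin TSPAN13 went from 19.2 to 270, and the surface glycoprotein CD24 from 13.9 to 159, at 3.82 ± 0.42 and 3.52 ± 0.42 in the authors' deposited table. CD24 is scarce in the breast cancer cells usually described as stem-like, of which MDA-MB-231 is a common example.

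At the same minimum mean count, the lowered genes at the far end had clear expression in Ctrl. The minimum itself requires this, because it keeps out strongly lowered genes with a low Ctrl mean but not raised ones. The contrast in Ctrl level between these raised and lowered genes is therefore no finding. CEBPD, a transcription factor of acute inflammation, went from 1075 to 231 (-2.22 ± 0.46 in the authors' deposited table). OPLAH, 5-oxoprolinase of the glutathione cycle, and the long noncoding RNA DGCR5 lay at -2.23 ± 0.45 and -2.19 ± 0.42 in the authors' deposited table. ADAM8, a membrane metalloprotease, was more abundant: its mean went from 4764 to 1159. The interleukin 27 receptor subunit IL27RA, from 295 to 71.9, had 1 of the 10 smallest statistics (adjusted p = 2.45e-09 in the authors' deposited table).

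**Figure D3:**
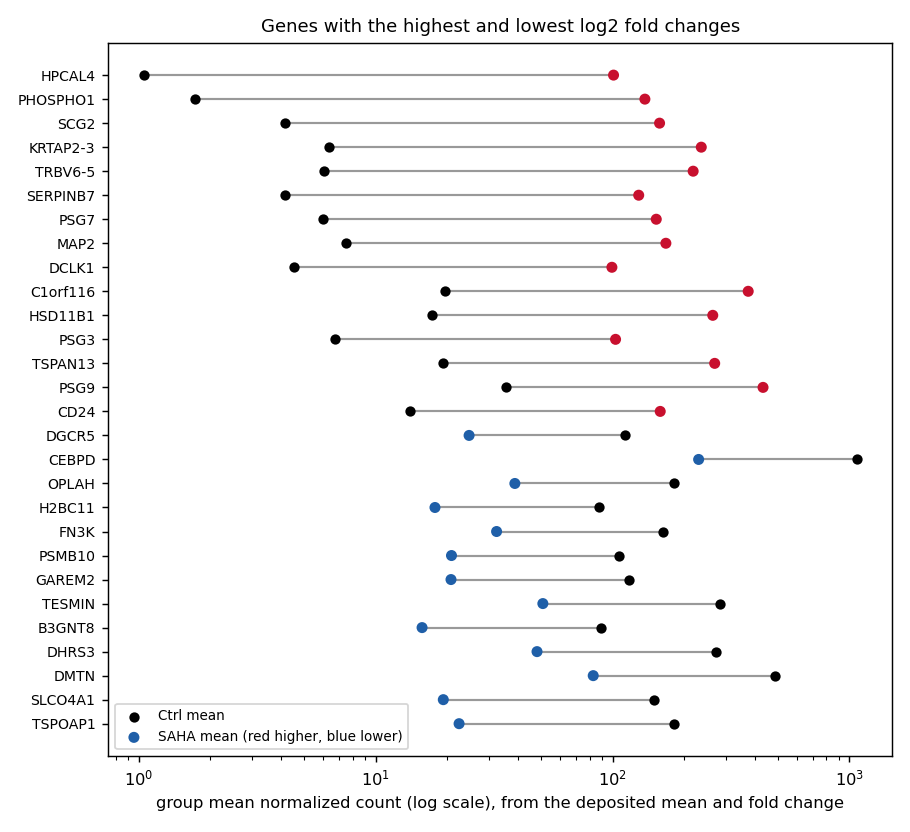
Lines join the group mean normalized count in Ctrl (black) with that in SAHA (red for higher, blue for lower) on a log axis, for the 15 highest and 13 of the lowest log2 fold changes among genes that passed and averaged 50 counts or more. Raised genes start between 1.05 and 35.4 in Ctrl, and lowered genes start between 87.4 and 1075. The minimum of 50 counts over both groups keeps out lowered genes with a low Ctrl mean, but not raised ones. No spread within a group is drawn because no value per library was analysed.

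Among the most abundant genes the changes were close to 2-fold. TGM2, a protein cross-linking transglutaminase, had the highest mean count of all raised genes and went from 11151 to 23003 (1.04 ± 0.30 in the authors' deposited table). DKK1, a secreted WNT inhibitor, went from 4227 to 9678, and SERINC2, of the serine incorporator family, from 3144 to 6498. On the lowered side the alpha-tubulin TUBA1B went from 21337 to 10406 (-1.04 ± 0.25 in the authors' deposited table), and HDGF, a growth factor that binds chromatin, from 10358 to 5290. PRPF8, the core protein of the spliceosome, went from 7612 to 3893. The actin-binding protein PFN1, the lamin LMNB2, PRRC2A and ENO3 also fell, by 0.79 to 0.93 in the authors' deposited table. Those 4 calls were lost both with the GC trend removed and with centring on abundant genes, at adjusted p from 0.0539 to 0.182. ENO3 overlaps PFN1 on chromosome 17, and the sources used here do not say whether reads were counted by strand.

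The targets of the drug did not pass the test themselves. None of the 11 zinc-dependent HDAC genes changed, with log2 fold changes from -0.91 (HDAC10, with group means of 12.5 and 6.64) to 0.30 (HDAC3), and a median of 0.07. Their summed group mean was 9436 in Ctrl and 9598 with SAHA. HDAC1, HDAC2 and HDAC3, the class that works in nuclear corepressor complexes, lay at 0.28 ± 0.27, 0.23 ± 0.29 and 0.30 ± 0.27 in the authors' deposited table. HDAC4, of the class that shuttles between nucleus and cytoplasm, was lowest of the well-counted members, at -0.61 ± 0.27 (adjusted p = 0.168 in the authors' deposited table). The 7 sirtuins, deacetylases that use NAD rather than zinc, had a median of 0.30 and also 0 calls.

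Of 30 partners of HDACs in corepressor complexes, 0 rose and 2 fell, with a median of -0.18. CHD3, a remodelling ATPase of the NuRD complex, went from 2554 to 1066 (-1.26 ± 0.25 in the authors' deposited table). RCOR2, a CoREST scaffold, went from 43.4 to 10.3. None of 17 acetyltransferase genes passed, and 3 lay above 0, with a median of -0.42. Their values without a call included -0.42 ± 0.36 for EP300 and -0.87 ± 0.35 for CREBBP, the paired coactivators of many enhancers, in the authors' deposited table. Among 10 acetyl-lysine readers of the BET family and P-TEFb regulators, 1 fell: MEPCE, the capping enzyme of the 7SK RNA, at -1.01 ± 0.29 in the authors' deposited table (adjusted p = 0.0723 with the GC trend removed). HEXIM1, an inhibitor of P-TEFb, was at -0.09 ± 0.28 without passing, in the authors' deposited table.

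Of 24 genes of Polycomb repression and DNA methylation, 0 rose and 4 fell (16.7%, against 3.02% of all genes), with a median of -0.31. PHF19, a Polycomb-like protein that helps PRC2 bind chromatin, fell most, from 3001 to 860 (-1.80 ± 0.24 in the authors' deposited table). The maintenance system of DNA methylation fell too: DNMT1 went from 4882 to 2693 and its recruiter UHRF1 from 2301 to 1139. The de novo enzyme DNMT3A went from 300 to 139. The DNMT1 call was lost with the GC trend removed (-0.75, adjusted p = 0.0645) and with centring on abundant genes (adjusted p = 0.0735). Of 33 protein-coding histone genes, 0 rose and 4 fell, with a median of -0.47. H2BC11 was at -2.30 ± 0.42 and H2BC21 at -2.29 ± 0.65 in the authors' deposited table. Replication-dependent histones, whose messages lack a poly(A) tail, serve as a sign of RNA selection: 2 of 17 fell (11.8%), 3 lay above 0, their median was -0.68, and their summed level went from 2465 to 1984. Their part in other results was not tested.

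The other lists of RNA quality held no calls. The 13 mitochondrially encoded genes had 0 calls, a median of 0.06 and summed levels of 291025 in Ctrl and 304404 with SAHA. Of 3 nuclear retained RNAs, 0 passed. Of 14 luminal and basal breast markers 7 were measured, with 0 calls; ESR1 and PGR were not among those measured. VIM and KRT8, abundant in these cells, went from 21149 to 17119 and from 17305 to 23136 without passing.

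**Figure D4:**
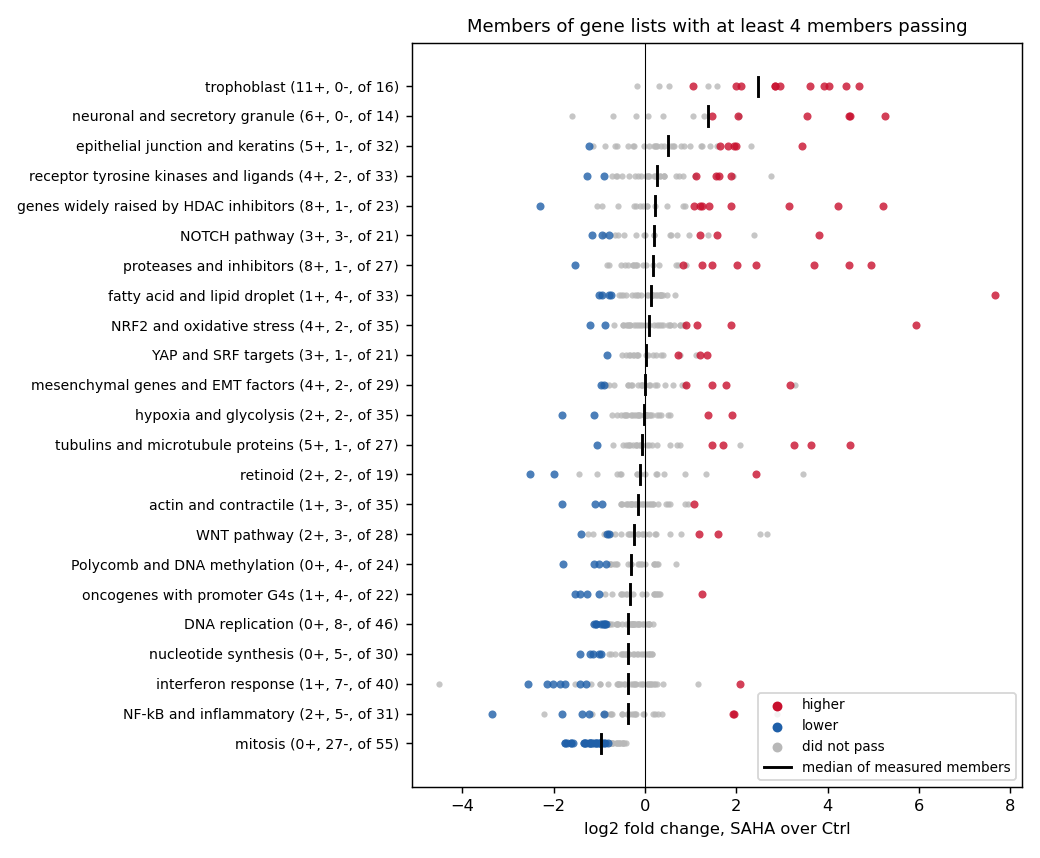
Points are the measured members of the 23 gene and marker lists with at least 4 members that passed, with the log2 fold change on the horizontal axis. Red points rose, blue points fell, grey points did not pass, the black bar is the median of all measured members, and the numbers beside each name count risen (+), fallen (-) and measured members. Mitosis genes lie at or below -0.42 without exception, while proteases, HDAC inhibitor genes and both marker lists at the top spread to the right.

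Genes known to be raised by HDAC inhibitors in many cell types were split. Of 23 measured, 8 rose and 1 fell (34.8% and 4.35%), with a median of 0.23 and 14 above 0. The list was chosen with earlier results of these data known, so these shares are a description only. CPA4, a secreted carboxypeptidase found as a gene induced by such drugs in prostate cancer cells, went from 645 to 5730, the smallest adjusted p of the table. IGFBP3, a binding protein of insulin-like growth factors, went from 887 to 3273 (1.88 ± 0.27 in the authors' deposited table). The chaperone CLU went from 1089 to 2298 (1.08 ± 0.28 in the authors' deposited table), and the metallothionein MT1X from 45.8 to 122. DHRS2 and HPGD, short-chain dehydrogenases, rose from near 0, to group means of 25.7 and 25.6. GADD45B, a stress sensor, did not pass and lay at 0.05 ± 0.30 in the authors' deposited table. TXNIP, the thioredoxin inhibitor, went from 5168 to 9159, but with an error of ± 0.98 it was not called (adjusted p = 0.753 in the authors' deposited table).

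The promoters of the gene with the smallest adjusted p and of CDKN1A differ in kind, and are printed because both genes stand for the response to HDAC inhibitors. They are RefSeq windows on GRCh38.p14, from 250 bases before the annotated start to 50 bases from it, on the plus strand, 5′ to 3′. Capitals mark matches on either strand to the letters CCAAT (the binding box of factor NF-Y), GGGCGG (GC box), TTTGAA (the CHR element of cell cycle genes), GCGGGAA (E2F), TATAAA (bound by TBP, the TATA box) or TGACTCA (AP-1); some matches overlap. The CPA4 window lies at chr7:130292911-130293210 and the CDKN1A window at chr6:36678464-36678763.
CPA4: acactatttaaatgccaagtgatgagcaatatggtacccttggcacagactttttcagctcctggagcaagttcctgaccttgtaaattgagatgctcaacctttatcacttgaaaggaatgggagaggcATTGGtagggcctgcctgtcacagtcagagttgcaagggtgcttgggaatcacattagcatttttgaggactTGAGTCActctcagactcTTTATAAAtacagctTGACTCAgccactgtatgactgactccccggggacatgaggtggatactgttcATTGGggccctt
CDKN1A: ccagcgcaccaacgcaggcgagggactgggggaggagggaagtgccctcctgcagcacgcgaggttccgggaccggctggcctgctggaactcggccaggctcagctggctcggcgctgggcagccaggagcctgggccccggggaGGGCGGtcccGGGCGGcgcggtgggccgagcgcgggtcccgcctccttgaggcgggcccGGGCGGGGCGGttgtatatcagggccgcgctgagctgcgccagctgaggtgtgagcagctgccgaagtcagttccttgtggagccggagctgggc
In the CPA4 window there were 2 AP-1 matches, starting at -48 and -15 counted from the start site, and TATA box matches between them from -30. The CDKN1A window had 4 GC boxes between -104 and -40 and no TATA box match by these letters. GC content was 46.3% and 74.3%. Of the 22114 windows of the RefSeq table that stand alone for their gene, 5.12% hold an AP-1 match, 12.7% a TATA box match and 43.0% a GC box. Among 397 raised genes with such a window the shares were 8.06%, 12.1% and 62.2%. Among all 8436 tested genes with a window they were 3.57%, 5.69% and 70.1%, and among 286 lowered genes 4.20%, 8.39% and 73.8%. These matches are letters in a window and say nothing of binding.

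Mitosis genes moved down as a group. All 55 listed members were measured and lay below 0; 0 rose and 27 fell (49.1%, against 3.02% of all genes), and the median was -0.96. The summed group mean of the list was 76234 in Ctrl and 38774 with SAHA. ESPL1, separase, which cuts cohesin at anaphase, had the smallest adjusted p and went from 1225 to 410 (-1.58 ± 0.28, adjusted p = 1.98e-06 in the authors' deposited table). The kinesin KIF20A went from 1831 to 549 and the kinase PLK1 from 3048 to 1212. The mitotic cyclins CCNB1 and CCNB2 went from 3478 to 1777 and from 1045 to 430. CDC20, an activator of the anaphase-promoting complex, went from 6236 to 2738, and AURKB, kinase of the chromosomal passenger complex, from 1963 to 776. The spindle protein ASPM and the kinetochore protein CENPF lay at -1.62 ± 0.34 and -1.70 ± 0.40 in the authors' deposited table. TOP2A, which untangles chromosomes, was at -0.96 ± 0.42 and BIRC5, survivin, at -0.76 ± 0.27, and these did not pass in the authors' deposited table. Fewer dividing cells and less message per dividing cell cannot be told apart in bulk RNA, here or in the lists that follow.

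The promoter windows of the 3 lowered mitosis genes with the smallest adjusted p are shown because such genes are known to share CCAAT boxes and CHR elements near their start sites. The windows lie at chr12:53268049-53268348 (ESPL1), chr5:138178862-138179161 (KIF20A) and chr16:23678639-23678938 (PLK1), all on the plus strand of GRCh38.p14 from RefSeq, with capitals as above.
ESPL1: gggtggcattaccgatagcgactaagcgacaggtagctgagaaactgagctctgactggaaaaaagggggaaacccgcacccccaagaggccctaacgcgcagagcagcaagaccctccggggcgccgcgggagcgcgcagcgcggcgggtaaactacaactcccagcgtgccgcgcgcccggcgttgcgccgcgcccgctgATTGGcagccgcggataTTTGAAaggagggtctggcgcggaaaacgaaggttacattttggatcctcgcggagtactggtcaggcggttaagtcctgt
KIF20A: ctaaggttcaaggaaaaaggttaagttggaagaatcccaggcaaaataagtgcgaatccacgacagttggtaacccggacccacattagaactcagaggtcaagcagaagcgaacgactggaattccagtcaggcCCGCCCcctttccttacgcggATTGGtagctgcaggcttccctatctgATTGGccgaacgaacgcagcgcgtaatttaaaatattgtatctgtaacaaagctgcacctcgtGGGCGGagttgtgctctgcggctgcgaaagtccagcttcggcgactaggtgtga
PLK1: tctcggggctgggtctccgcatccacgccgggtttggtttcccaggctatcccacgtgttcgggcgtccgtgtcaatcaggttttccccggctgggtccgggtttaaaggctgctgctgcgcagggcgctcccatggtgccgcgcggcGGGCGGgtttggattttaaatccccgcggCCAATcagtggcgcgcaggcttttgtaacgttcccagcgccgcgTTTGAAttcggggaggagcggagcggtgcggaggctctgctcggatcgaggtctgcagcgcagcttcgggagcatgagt
ESPL1 held a CCAAT box at -48 and a CHR match at -31, and PLK1 a CCAAT box at -73 and a CHR match at -29. KIF20A held CCAAT boxes at -94 and -67, GC boxes at -115 and -4, and no CHR match by these letters. Among 20 lowered mitosis genes with a window 75.0% held a CCAAT box and 65.0% a CHR match; among 20 mitosis genes that did not pass the shares were 85.0% and 85.0%. In the 8436 tested genes with a window they were 37.1% and 9.32%, and in all 22114 windows 36.2% and 16.0%. Of the 31 DNA replication genes with a window 41.9% held an E2F match, against 10.2% of the tested genes, 6.43% of all windows and 5.00% of the lowered mitosis genes.

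DNA synthesis genes fell in smaller numbers. Of 46 replication genes 0 rose and 8 fell (17.4%), with a median of -0.36. LIG1, the ligase of the lagging strand, went from 1037 to 477. MCM7, a subunit of the replicative helicase, went from 7308 to 3986; its call was lost with the GC trend removed (adjusted p = 0.127) and with centring on abundant genes (adjusted p = 0.106). Of 30 nucleotide synthesis genes 0 rose and 5 fell (16.7%), with a median of -0.37. TYMS, which makes thymidylate, went from 3489 to 1316, CAD, which begins pyrimidine synthesis, from 4050 to 1835, and SHMT1, which supplies folate-bound carbon, from 849 to 368. RRM2, a subunit of ribonucleotide reductase, fell as well, from 2193 to 1125. Of 32 homologous recombination and Fanconi genes 0 rose and 2 fell, with a median of -0.41; the recombinase partner RAD54L went from 491 to 145.

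The regulators above these genes moved less uniformly. Of 19 E2F and RB family genes 3 fell and 0 rose, with a median of -0.11. FOXM1, the transcription factor of G2 and mitosis genes, went from 2681 to 1047 (-1.36 ± 0.27 in the authors' deposited table). MYBL2 and TFDP1, partners in the same programmes, were at -0.92 ± 0.30 and -0.80 ± 0.27 in the authors' deposited table. Centring on abundant genes ended both calls (adjusted p = 0.0917 and 0.122), and removing the GC trend ended that of MYBL2 (adjusted p = 0.147). Among 14 CDK inhibitors and G1 cyclins 2 rose: CDKN1A from 1929 to 4609, and CCND2 from near 0 to 22.2. The other cyclins D did not pass, CCND1 at -0.06 ± 0.28 and CCND3 at 0.39 ± 0.28 in the authors' deposited table, and neither did the inhibitors CDKN1B and CDKN1C, at -0.33 ± 0.28 and -0.94 ± 0.47 in the authors' deposited table. MDA-MB-231 carries mutant p53, and of 21 p53 target genes measured 1 rose and 0 fell, with a median of 0.06.

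Genes of cell death held single calls. Of 15 BCL2 family genes 1 rose and 1 fell (6.67% each, against 4.53% and 3.02% of all genes). PMAIP1 (the BH3-only protein NOXA) rose from 1002 to 1711 and BID fell from 869 to 393, at 0.77 ± 0.26 and -1.14 ± 0.29 in the authors' deposited table. The PMAIP1 call was lost with the GC trend removed (adjusted p = 0.0786). The survival genes BCL2L1 and MCL1 were at 0.05 ± 0.28 and -0.02 ± 0.28 in the authors' deposited table. Of 25 death receptors, caspases and their inhibitors 1 rose (4.00%, near the share of all genes), the decoy receptor TNFRSF10C, from 7.79 to 27.8.

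Microtubule genes moved both ways. Of 27 measured, 5 rose and 1 fell, with a median of -0.06. The risen members were mostly those of neurons: MAP2 from 7.48 to 168, MAP1A from 2.02 to 19.3 and MAPT from 93.4 to 260, besides the brain beta-tubulin TUBB4A from 1.10 to 13.7. The fallen member was the common alpha-tubulin TUBA1B. Of 35 actin and contractile genes 1 rose and 3 fell, with a median of -0.14. TPM1 went from 1038 to 2174 and its relative TPM2 from 279 to 131, at 1.07 ± 0.24 and -1.09 ± 0.33 in the authors' deposited table. TAGLN, a smooth muscle protein that binds actin, went from 985 to 279 (-1.82 ± 0.32 in the authors' deposited table). Among 21 targets of YAP and SRF, factors that respond to cell tension, 3 rose and 1 fell. ANKRD1 went from 4330 to 11019 and CCN2 from 4573 to 10483. The tissue factor gene F3 went from 6101 to 10060, a call lost with the GC trend removed (adjusted p = 0.0912). CCN1, the close relative of CCN2, was at -0.17 ± 0.32 and did not pass in the authors' deposited table.

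The epithelial genes that passed mostly rose. Of 32 junction and keratin genes 5 rose and 1 fell (15.6% and 3.12%), with a median of 0.50 and 23 above 0. CGN, cingulin of tight junctions, went from 81.8 to 890 (3.44 ± 0.36 in the authors' deposited table). The hair keratin KRT81 went from 707 to 2734 and the claudin CLDN1 from 85.1 to 298. PKP3, a plakophilin of desmosomes, went the other way, from 325 to 139 (-1.23 ± 0.29 in the authors' deposited table). Of 29 mesenchymal genes 4 rose and 2 fell, with a median of 0.01. COL6A3, a collagen VI chain, went from 135 to 464 and TNC, tenascin of the matrix, from 844 to 1588; another collagen VI chain, COL6A1, and the AP-1 subunit FOSL1 were at -0.97 ± 0.31 and -0.90 ± 0.28 in the authors' deposited table. Both of those falls were lost with the GC trend removed (adjusted p = 0.170 and 0.115) and with centring on abundant genes (0.0721 and 0.0734).

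Some secreted proteases and some of their inhibitors rose. Of 27 measured, 8 rose and 1 fell (29.6% and 3.70%), with a median of 0.18. TFPI2, an inhibitor of plasmin and related proteases, went from 951 to 5131 (2.43 ± 0.26 in the authors' deposited table). TIMP4, which blocks metalloproteases, went from 62.5 to 251, and the serpin SERPINB7 from 4.14 to 129. Among the proteases were MMP1, interstitial collagenase, from 448 to 1250, PLAT, tissue plasminogen activator, from 2730 to 6478, and MMP3, stromelysin, from 1.37 to 30.5. The fallen member was the lysosomal cysteine protease CTSS, from 78.3 to 27.4. In the wider serpin family 5 of 17 protein-coding genes rose, and SERPINH1, the collagen chaperone HSP47, fell from 5270 to 1892 (-1.48 ± 0.26 in the authors' deposited table).

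Matrix and adhesion genes that passed mostly rose. Among 23 protein-coding genes with an ITG symbol 4 rose and 0 fell. ITGA7, a laminin-binding subunit, went from 22.2 to 150 and the collagen-binding ITGA1 from 87.8 to 250; ITGAX rose from near 0 to 16.9. LAMB3, the beta chain of laminin 332, went from 12289 to 20724 without passing (adjusted p = 0.126 in the authors' deposited table). Among 29 collagen genes 5 rose and 2 fell: the hemidesmosome collagen COL17A1 went from 164 to 431, and COL7A1, of anchoring fibrils, from 1714 to 725. The proteoglycans LUM and SDC2 rose, LUM from near 0 to 49.3 and SDC2 from 159 to 336. The protocadherin PCDH1 went from 234 to 1215 (2.38 ± 0.28 in the authors' deposited table).

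Ligands and receptors of growth factor pathways showed single strong members. In the TGF-beta and BMP list 3 of 31 rose and 0 fell, with a median of -0.15. They were the activin subunits INHBA, from 105 to 346, and INHBB, from 4.11 to 39.6, and the receptor TGFBR2, from 984 to 2400. In the WNT list of 28 genes the secreted inhibitors DKK1 and DKK3 rose and 3 fell. The fallen genes were the ligands WNT3 (172 to 65.5) and WNT5B and the receptor FZD7, at -0.83 ± 0.29 and -0.78 ± 0.25 for the latter genes in the authors' deposited table. WNT5B and FZD7 lost the call with the GC trend removed (adjusted p = 0.165 and 0.0549) and with centring on abundant genes (0.126 and 0.0931). WNT5B also lost it when centred on the median of all genes (0.0518).

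In the NOTCH list 3 of 21 rose and 3 fell. The target genes HEYL and HES1 went from 41.1 to 124 and from 72.7 to 168, and the ubiquitin ligase DTX4 from 5.29 to 74.1. The receptor NOTCH1, its coactivator MAML1 and the factor HES4 were lower, by 0.79 to 1.15 in the authors' deposited table. All 3 of those falls were lost with the GC trend removed, at adjusted p of 0.119, 0.0880 and 0.364. Of 25 EGFR family genes the ligands NRG1 and HBEGF rose, from 370 to 761 and from 1164 to 2028. Among 33 other receptor tyrosine kinases and ligands 4 rose and 2 fell. EPHA4, an ephrin receptor, went from 25.6 to 94.4, FGF1 from 37.2 to 115 and the VEGF receptor KDR from 41.7 to 123. PDGFA and the insulin receptor INSR fell, from 150 to 62.4 and from 468 to 252. In the ephrin family as a whole 5 of 16 rose and 0 fell. Semaphorins and plexins had 5 risen and 2 fallen of 26 protein-coding genes, with SEMA7A going from 1513 to 3258.

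G protein-coupled receptors held 15 risen and 3 fallen of 103 protein-coding genes taken by symbol (14.6% and 2.91%, against 4.99% and 3.66% of all protein-coding genes). Members near 0 in Ctrl could be tested only if SAHA libraries held their reads, and the part of expression level was not tested. F2RL2, a protease-activated receptor, went from 1.39 to 80.9 and the endothelin receptor EDNRB from 76.9 to 258. CXCR4, the chemokine receptor studied in breast cancer spread, went from 92.0 to 296 (1.69 ± 0.31 in the authors' deposited table). The adrenergic receptor ADRA1B and the sphingosine phosphate receptor S1PR1 went from 118 to 353 and from 25.8 to 107. Among protein-coding KCN genes, of potassium channels and their partners, 5 of 37 rose and 1 fell, and the calcium channel gene CACNA1G went from 2.16 to 83.1.

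Inflammatory and interferon genes fell more often than they rose. In the NF-kB list 2 of 31 rose and 5 fell (16.1%, against 3.02% of all genes), with a median of -0.38. The colony-stimulating factor gene CSF3 went from 24.2 to 2.37, and the NF-kB inhibitor NFKBIA, itself a target of the pathway, from 1483 to 799. The chemokine CXCL16 and the interleukin IL1A rose, from 68.5 to 266 and from 79.0 to 299. In the interferon response list 1 of 40 rose and 7 fell (17.5%), with a median of -0.37. IFITM1, which blocks viral entry, went from 217 to 48.9, IFIT3 from 331 to 82.1 and the regulator IRF7 from 358 to 147. IFI6 went the other way, from 175 to 739.

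TNFAIP2, a TNF-induced gene that went from 2558 to 726, gave the lowered promoter shown here. It was the first by adjusted p of the lowered genes with a single RefSeq window, leaving out genes not reported. The window lies at chr14:103123211-103123510 on the plus strand, with capitals as above.
TNFAIP2: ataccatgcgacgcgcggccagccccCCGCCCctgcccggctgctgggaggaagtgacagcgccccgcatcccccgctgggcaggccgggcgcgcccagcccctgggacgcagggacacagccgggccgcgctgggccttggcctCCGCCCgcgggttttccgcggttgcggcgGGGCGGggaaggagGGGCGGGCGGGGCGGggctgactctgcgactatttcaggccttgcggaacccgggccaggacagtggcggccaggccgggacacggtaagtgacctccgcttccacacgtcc
The window had 6 GC boxes, 5 of them between -105 and -53, and a GC content of 75.7%. The median GC content of windows was 68.3% for lowered genes, 64.0% for raised genes and 65.3% for all tested genes. Of lowered genes 16.1% held a match to the NF-kB motif, against 12.7% of tested genes and 10.5% of all windows. Most other motifs counted were also more frequent in lowered than in tested genes, such as CHR (13.6% against 9.32%) and the TATA box (8.39% against 5.69%). The CCAAT box was not (35.3% against 37.1%). The part of GC content in these shares was not tested.

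Antigen presentation moved apart by class. Of 21 MHC class I genes 0 rose and 2 fell, with a median of -0.26. PSMB10, an immunoproteasome subunit, went from 106 to 20.9. The transactivator NLRC5 went from 534 to 286, a call lost with the GC trend removed (adjusted p = 0.119) and with centring on abundant genes (0.0943). Of 16 protein-coding genes with an HLA symbol 5 rose and 0 fell, and the risen genes were of class II. HLA-DMB, a peptide exchange factor, went from 35.8 to 161, HLA-DOA from 27.1 to 98.7 and HLA-DPB1 from 156 to 423. The class II transactivator CIITA was at -0.22 ± 0.27 and HLA-DRA at 0.39 ± 0.31, neither passing, in the authors' deposited table. HLA genes resemble each other, so the share of reads of each is uncertain. CD274, the checkpoint ligand PD-L1, went from 228 to 483, the 1 call among 16 NKG2D and checkpoint ligands.

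Among cytokines and TNF family members, TNFSF15, a ligand made by endothelial cells, rose most with clear counts, from 123 to 1159 (3.23 ± 0.35 in the authors' deposited table). Of 23 protein-coding genes of the TNF ligand and receptor families 6 rose and 1 fell. IL18 went from 164 to 538, and IL1RN, the natural antagonist of interleukin 1, from 41.1 to 124.

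Lipid genes that fell were those of synthesis. Of 33 fatty acid and lipid droplet genes 4 fell and 1 rose, with a median of 0.13. FASN, fatty acid synthase, went from 10497 to 5226, the desaturases FADS2 from 2827 to 1489 and SCD from 3172 to 1841. The FASN call was lost with the GC trend removed (adjusted p = 0.0929), and that of SCD with centring on abundant genes (0.0901). FABP4, the fatty acid carrier of adipocytes, rose from near 0 to 39.1. Of 27 cholesterol synthesis genes 1 rose and 2 fell, with a median of 0.03. INSIG1, a sterol-sensing brake, fell from 1127 to 477.

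Hypoxia and glycolysis genes changed in both directions: of 35, 2 rose and 2 fell (5.71% each, against 4.53% and 3.02% of all genes). Their median was -0.02. The carbonic anhydrase CA9 went from 512 to 145 and the phosphofructokinase PFKL from 4071 to 1884. ANGPTL4 and the oxygen sensor EGLN3 went from 95.8 to 360 and from 82.9 to 216. The abundant glycolytic genes ENO1 and PKM stayed at -0.15 ± 0.29 and 0.12 ± 0.28 in the authors' deposited table. The PFKL call was lost with the GC trend removed (adjusted p = 0.0963).

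Oxidative stress genes of the NRF2 list had 4 risen and 2 fallen of 35, with a median of 0.10. AKR1B10, an aldo-keto reductase, went from 1.41 to 85.6 and the secreted peroxidase GPX3 from 2584 to 5688. KEAP1, the repressor of NRF2, fell from 1534 to 662 (-1.21 ± 0.25 in the authors' deposited table). AKR1C2 and AKR1C3 rose by 1.88 ± 0.63 and 0.91 ± 0.30 in the authors' deposited table; both calls were lost with the GC trend removed (adjusted p = 0.0576 and 0.0722), and these near-identical paralogs can share reads. In the unfolded protein and ATF4 list 1 of 37 fell, the factor ATF5, from 361 to 108.

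Retinoid genes held strong changes in both directions, with 2 of 19 risen and 2 fallen. The esterifying enzyme LRAT went from 4.54 to 24.4. DHRS3, which reduces retinal to retinol, went from 274 to 48.0, and PLAAT4, a retinoid-induced gene, from 246 to 61.6. The prostaglandin list had 2 risen of 19 and a median of 0.65: PTGS1, cyclooxygenase 1, went from 244 to 894 beside the degrading enzyme HPGD. Among protein-coding cytochrome P450 genes 4 of 18 rose and 1 fell. CYP1A1 went from 272 to 1164 while CYP1B1, another target of the aryl hydrocarbon receptor, went from 1204 to 501. CYP24A1, which breaks down vitamin D, went from 53.4 to 219.

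Of 236 protein-coding genes with an SLC symbol 20 rose and 10 fell (8.47% and 4.24%). SLC40A1, the iron exporter ferroportin, went from 17.6 to 125, and SLC37A2, a sugar phosphate carrier, fell from 1527 to 515. Of 32 protein-coding ABC transporter genes 5 rose and 1 fell. The sterol pump ABCG1 went from 27.0 to 114. The drug efflux pump ABCB1 rose from near 0 to 10.5, and ABCG2, a second pump of drugs, went from 28.5 to 78.4 (1.46 ± 0.45 in the authors' deposited table). ABCC3 fell from 850 to 462, a call lost with the GC trend removed (adjusted p = 0.0601) and with centring on abundant genes (0.0639).

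Core synthesis machinery stayed at or near 0. The 61 cytosolic ribosomal proteins had 0 calls, a range from -0.37 to 0.26 and a median of -0.11. Ribosome biogenesis (33 genes), tRNA synthetases (20), the proteasome (31) and nuclear genes of oxidative phosphorylation (35) had 0 calls each, with medians from -0.14 to 0.01. The lists of splicing factors, heat shock genes, and lysosome and autophagy genes each had 1 fallen member: SRSF4 at -1.03 ± 0.25, FKBP4 at -0.73 ± 0.25 and ULK2 at -1.03 ± 0.35 in the authors' deposited table. FKBP4 lost its call with the GC trend removed (adjusted p = 0.0594). ULK2 lost its call with centring on the median of all genes (adjusted p = 0.0514). In all, 8 of the 52 gene lists had 0 calls. Median log2 fold changes of -0.11 and -0.14 in ribosomal and proteasome lists lie near the -0.14 of all genes whose mean count reached 1000.

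Genes of other lineages were among the strongest risers. Genes of pregnancy-specific glycoproteins, secreted immunoglobulin-like proteins of the placenta that lie side by side on chromosome 19, moved together: 10 of 11 symbols with a PSG start rose and 0 fell, with a median of 3.61. PSG4 had the highest Ctrl mean of the genes named here and went from 179 to 772, PSG5 from 70.4 to 507, PSG1 from 60.3 to 433 and PSG9 from 35.4 to 432. The lowest, PSG11, went from 1.74 to 28.4. These genes are nearly identical copies, so reads may be split between them and their values are not independent. Of the 16 trophoblast markers measured out of 22, 11 rose: 10 PSG genes and KISS1, from 1433 to 2959. PAPPA and PGF, other placental genes, were at 0.52 ± 0.67 and 0.31 ± 0.39 in the authors' deposited table.

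Of 32 neuronal and secretory granule markers 14 were measured, 6 rose and 0 fell. SYP, synaptophysin, went from 3.84 to 45.3 and the secretogranin gene SCG5 from 27.8 to 114. L1CAM, the most abundant member, was at 0.06 ± 0.30 in the authors' deposited table. Other lineage lists had fewer measured members and 0 to 2 calls each. Glial and muscle markers, with 4 measured in each list, had 0 calls. Of 4 adipocyte and liver markers FABP4 alone rose, and the median was -0.86. Of 7 endothelial markers 2 rose, VWF from 1.41 to 23.0 besides KDR. Of 6 fibroblast markers LUM rose, and of 4 cancer testis genes SPANXB1 and MAGEB2 rose, SPANXB1 from 65.1 to 263. The monocyte gene CD14 went from 28.2 to 99.3, the 1 call among 3 haematopoietic markers measured, whose median was -0.80. The other members, CD68 and CD79A, lay at -0.80 and -3.19 without passing. The lowest mean count in the table was 2.44, so a gene near 0 in Ctrl was tested only if SAHA libraries held its reads, and the counts and medians of these marker lists are a description only.

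Neighbouring genes that changed together formed 19 runs of at least 3 adjacent tested genes that rose and 6 that fell, with 69 and 20 genes. Of these, 15 and 3 runs held at least 2 protein-coding genes. The longest run was that of 10 genes from PSG1 on, at chromosome 19, 42866464 to 43331430, with log2 fold changes from 2.11 to 5.31. On chromosome 7, 93424487 to 93928610, the run was CALCR, GNGT1, TFPI2 and GNG11; the calcitonin receptor CALCR went from 1.75 to 51.4 and the G protein subunit GNG11 from 839 to 1975. GNGT1 overlaps TFPI2, and its rise from 46.7 to 231 cannot be told apart from reads of that gene. On chromosome 3, 46364955 to 46485234, CCR5AS, CCRL2, LINC02009 and LTF rose; LINC02009 went from 455 to 2007. ABCB4, ABCB1 and RUNDC3B rose side by side on chromosome 7, 87401697 to 87832296, and WTAPP1, MMP1 and MMP3 on chromosome 11, 102746968 to 102843803. The longest lowered run, from PIEZO1 to CDT1 on chromosome 16, 88715338 to 88809258, held 5 genes of which 2 are protein-coding, and lay between -1.08 and -0.89. CDT1, the replication licensing factor, lost its call with the GC trend removed (adjusted p = 0.268) and with centring on abundant genes (0.105). TYMSOS, TYMS and ENOSF1, overlapping genes on chromosome 18, fell together.

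Long noncoding genes as a class (3539 tested) rose in 3.56% and fell in 1.58%, both below the 4.53% and 3.02% of all genes. Its types differed. Of 934 lincRNAs in GENCODE 29, 6.96% rose and 0.428% fell, with a median of 0.25; antisense genes had 2.25% and 2.12%. Of 294 genes with a LINC symbol 30 rose and 2 fell. LINC00460 went from 4.22 to 66.4, LINC01270 from 53.1 to 236 and LINC01615 from 66.2 to 280. The share of raised genes varied with the mean count, as given above, and that part in the lincRNA shares was not tested. Of 443 protein-coding ZNF genes 3 rose and 6 fell, 0.677% and 1.35%, with a median of -0.01. The 32 nuclear receptors had 0 calls. Across the autosomes and X the share that fell ranged from 1.02% on chromosome 13 to 5.13% on chromosome 16, and chromosome 16 had 1.90% risen.

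Genes linked to G-quadruplexes, four-stranded folds of guanine-rich nucleic acid that a6 was made to bind, were looked at because the authors deposited lists of them. Of 25 helicases and binding proteins of such folds 1 fell and 0 rose, with a median of -0.26. Of 22 oncogenes known for promoter G-quadruplexes 1 rose (CDKN1A is counted in that list) and 4 fell. The authors' deposited lists of raised and lowered genes hold 1327 and 609 genes, chosen by unadjusted p under 0.05 and at least 2-fold. Of these, 535 (40.3%) and 292 (47.9%) have an entry in the authors' deposited G4-related lists. Over all 723 and 440 entries of those lists, matched or not, the medians were 2.00 and 3.00 G4s. The region in which they were counted, and the share among unchanged genes, were not analysed here.

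The other compounds at the same dose and time show which SAHA changes were larger than theirs. Each was compared with the same Ctrl libraries. The difference of log2 fold changes was tested in 2 pairs with a z test that adds both errors as if they were independent, with Benjamini-Hochberg adjustment. SAHA differed from a6 in 39 of 15255 genes (0.256%), 30 with SAHA above a6. Of 1148 genes called with SAHA and present in both tables, 36 (3.14%) differed. From compound 1 it differed in 197 of 18514 genes (1.06%), 108 above and 89 below, all among the 1386 called with SAHA. With an error correlation of 0.5, as the shared Ctrl libraries would give, the counts became 540 and 987. A difference that missed the threshold does not show that compounds acted alike.

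CPA4 differed from both with the smallest adjusted p: the authors' deposited table gives 0.49 ± 0.21 with a6 and -0.11 ± 0.19 with compound 1. Its difference from a6 was 2.66 (95% interval 2.01 to 3.32, adjusted p = 1.81e-11). Larger differences had wider intervals, among them C1orf116 with 3.75 from a6 (2.42 to 5.09) and 4.04 from compound 1 (2.48 to 5.61). TRBV6-5 differed from compound 1 by 6.19 (3.92 to 8.45). IGFBP3 differed from a6 by 1.82 (1.10 to 2.54) and the LIM protein gene LMCD1 by 2.08 (1.28 to 2.88). PHF19 differed from a6 by -1.77 (-2.39 to -1.14), ESPL1 by -1.54 (-2.27 to -0.82) and RAD54L by -1.49 (-2.20 to -0.79). The water and glycerol channel AQP3 and TNC were at -1.06 ± 0.31 and -0.76 ± 0.24 with a6 in the authors' deposited table, without passing, and differed from SAHA by 2.13 and 1.67.

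Against compound 1, RGS4, a brake on G protein signalling, differed by 3.16 (2.23 to 4.09), the natriuretic peptide gene NPPB by 3.07 (2.15 to 4.00) and PSG5 by 2.93 (2.01 to 3.85). SLCO4A1, an organic anion carrier, differed by -2.98 (-3.97 to -2.00) and TSPOAP1 by -2.84 (-3.69 to -1.98). Other genes gave no call for a difference from a6. CGN was at 2.33 ± 0.37 with a6 in the authors' deposited table, and its difference was 1.12 (0.11 to 2.12, adjusted p = 0.766). For TAGLN the difference was 0.28 (-0.56 to 1.11), for CA9 0.94 (-0.26 to 2.15) and for CDKN1A 0.52 (-0.38 to 1.42), all with an adjusted p of 1.000.

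**Figure D5:**
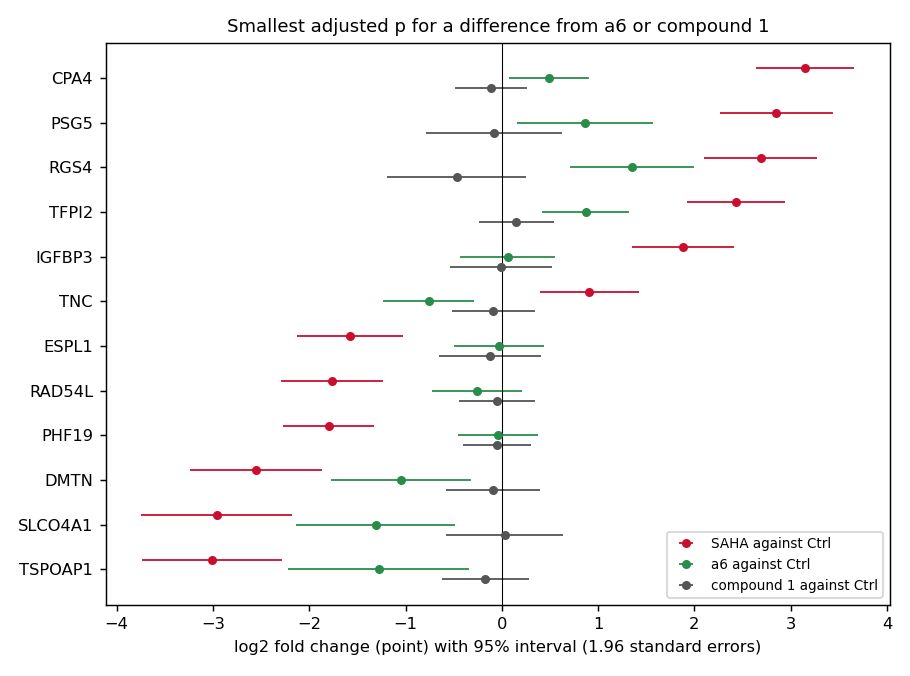
Points are log2 fold changes against Ctrl with 95% intervals for SAHA (red), a6 (green) and compound 1 (grey), for 12 of the genes with the smallest adjusted p for a difference between SAHA and another compound; they were not chosen by size. SAHA lies apart from 0 for all 12, compound 1 lies within 0.47 of 0, and a6 lies between them for most genes and on the other side of 0 for TNC.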

How the data were processed

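RNA of MDA-MB-231 cells was sequenced and compared by the authors; cutadapt, DESeq2 and hg38 (GRCh38) are the tools and build named per the submitters' processing notes. Neither the aligner, the read counter nor the use of strand was given in the sources used here. Per the file headers, the deposited tables hold for each gene its mean normalized count (used as signal), the log2 fold change and error, the Wald score of that change, and its p-value before and after adjustment. The authors' lists of changed genes and of G4-related genes (a number of G4s per gene, read as a score) were used as deposited, for names and numbers only. Checks on the table found that the deposited score is the quotient of change and error, and that adjustment was by Benjamini-Hochberg over the genes listed. Values per library were read from 0 columns, and depth per library is unknown.

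Computed here were group means for equal groups, intervals, list counts, runs of neighbours, differences between compounds and motif matches, in Python 3.11.15 with pandas 2.3.3, scipy 1.17.1 and statsmodels 0.14.6. For positions, gene types (protein-coding or not) and GC content, 98.2% of genes were matched to GENCODE 29 (GRCh38). The z test and the calls were tested on simulated data. The calls were repeated at an adjusted p under 0.01, with a 2-fold limit, with a Wald test against 2-fold, with mean count minimums of 10 and 50, adjustment over all genes, centring on the median of all genes or of genes averaging 1000 counts or more, from the authors' lists, with a lowess trend on GC content (share 0.3) removed, with an error correlation of 0.5 for differences and, added after seeing the data, protein-coding genes only.

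The genes named are, among those that passed, averaged 50 counts or more and had no clone-type or noncoding name, the 15 highest and 15 lowest fold changes, the 10 largest and smallest statistics and the 10 most abundant in each direction. To these were added up to 3 risen, 3 fallen and 2 uncalled members of each list, up to 3 in each direction of each symbol family, all HDAC and sirtuin genes, the members of the longest runs and the 5 strongest differences in each direction. The genes ABCB4, ABCG2, ADRA1B, ASPM, AURKB, CCNB1, CCNB2, CDC20, CDKN1B, CDKN1C, CENPF, CIITA, CLU, CREBBP, CXCR4, ENOSF1, EP300, GADD45B, HEXIM1, HLA-DRA, IFIT3, IRF7, KISS1, NFKBIA, RRM2, RUNDC3B, S1PR1, SCG5, SYP, TOP2A, TYMSOS, UHRF1 and WTAPP1 fall outside that rule and were chosen after their values were seen. The comparison, the gene lists and their members were chosen with earlier results of these data known. Some genes that the rule takes are not reported here.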

Additional observations from a re-analysis of the deposited data

How the results depend on the processing

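The counts of 839 higher and 560 lower genes moved by over 1.5 times under these settings. An adjusted p under 0.01 gave 517 and 303, and a Wald test against a change of at most 2-fold gave 122 and 7. A mean count of at least 50 gave 446 higher, against 521 lower. The authors' own lists gave 1327 higher, against 609 lower. Centring on genes averaging 1000 counts or more left 372 lower, and removing the GC trend left 369 lower, of which 358 were also lower as deposited. With all other alternatives run, 710 to 851 genes were higher and 390 to 576 lower; the 2-fold limit gave 774 and 390 (6.28% of genes). An error correlation of 0.5, which shared Ctrl libraries would give, raised the genes that differed from a6 from 39 to 540 and from compound 1 from 197 to 987.

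Of 336 named genes that passed, 0 changed direction under the alternatives run. Most alternatives reuse the deposited fold changes, and centring shifts them by less than the smallest change called. That count is therefore no measure of robustness. The call was lost for 51 with the GC trend removed, for 35 with centring on abundant genes, for 2 with centring on the median, for 42 with the 2-fold limit, for 42 in the authors' lists, for 91 at an adjusted p under 0.01 and for 265 in the Wald test against 2-fold. No paired analysis was possible because the replicate numbers 1 to 3 in the labels have no values per library in the tables used here. For the same reason leaving out each replicate in turn was not run, and whether 1 library decides a call was not tested. Precision is limited by 3 libraries a group: the median standard error was 1.17 at a mean count under 10, where the smallest change called was 2.57 on the log2 scale, against 0.28 and 0.70 at 1000 and over.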
